A study of Mus musculus with 8 samples.

Results

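The proteasome genes of mouse embryonic stem cells were taken as every protein-coding gene whose symbol starts with Psma, Psmb, Psmc, Psmd, Psme, Psmf or Psmg followed by a digit. The rule found 50 genes among 55421 gene identifiers in the count table, and 4 pseudogenes were left out. By role they were 7 alpha and 7 constitutive beta subunits of the 20S core, 3 immunoproteasome subunits, 2 tissue-specific subunits, 6 ATPases and 11 other subunits of the 19S cap, 7 assembly chaperones and 5 activators or inhibitors. The remaining members were Psme2b, a near copy of Psme2, and Psmc3ip, a recombination factor that shares the name but is not a subunit. The 3′ ends of messenger RNAs were counted with the QuantSeq method in 8 libraries of E14 cells, a line derived from a blastocyst of 129/Ola background, in 4 groups of 2. KO cells lacked the miR-290-295 microRNA cluster, WT cells carried it, and neither received an siRNA. The siTfap4 cells were KO cells transfected with a pool of siRNAs (siPOOL) against the transcription factor Tfap4, and the siNeg cells were KO cells transfected with a negative control pool, each at 5 nM for 36 hours with a lipid reagent. All cells grew on gelatin in medium with serum and leukemia inhibitory factor. Preparation and sequencing took place in 2 sets, untreated libraries in one and siPOOL libraries in the other, so KO against WT and siTfap4 against siNeg were compared within a set, and levels between sets cannot be told apart from the set. The series text calls the replicates biological duplicates without naming separate cultures or clones, so the p-values measure only the spread between these libraries. The untreated libraries' titles end in suffixes of unstated meaning, of which CC stands on both KO replicate 2 and WT replicate 1.

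The 26S proteasome degrades proteins tagged with ubiquitin. Its 20S core is a barrel in which outer rings of alpha subunits gate the entry and inner rings of beta subunits cut the substrate. The 19S cap binds, deubiquitinates, unfolds and feeds in the substrate. The beta1, beta2 and beta5 positions carry the cutting activity, and cells exposed to interferon can replace the constitutive Psmb6, Psmb7 and Psmb5 there with Psmb9, Psmb10 and Psmb8, which alters the peptides made for display on MHC class I. Embryonic stem cells are known for high proteasome activity and for low display of MHC class I.

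Library totals lay between 8326675 and 12726123 counts, with 19271 to 21183 genes detected. Levels are given as CPM, counts per 1000000 scaled by TMM (trimmed mean of M-values) factors, and a gene is termed called where the adjusted p of edgeR's quasi-likelihood test with Benjamini-Hochberg adjustment over the 15137 genes tested was under 0.05. Of the 50 members, 48 were tested, and Psmb8 and Psmb11 had too few counts. The genes annotated at the deleted cluster had 4 and 0 counts in KO libraries and 88 and 36 counts in WT libraries, and 0 in every siPOOL library. Tfap4 had 12.3 and 15.8 CPM in siTfap4 libraries and 34.4 and 37.3 CPM in siNeg libraries, a log2 fold change of -1.35 (SE 0.27, adjusted p 0.00365 in edgeR's quasi-likelihood test), and it also stood higher in KO than in WT cells, by 1.33 on the log2 scale (SE 0.259, adjusted p 0.00363). The stem cell markers Pou5f1, Sox2, Nanog, Zfp42, Esrrb, Tdgf1, Dppa5a and Utf1 summed to between 2363 and 3487 CPM in every library. The sum hides larger changes of single markers, given below.

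In untreated KO cells the immunoproteasome subunit Psmb9 was 4.59-fold lower than in WT cells, while the log2 fold changes of the standard subunits stayed between -0.59 and 0.24. Psmb9 was the 1 member called among 48 tested (2.08%), against 9.95% of all genes tested in this comparison, 5.99% higher and 3.96% lower. In this fit of all 8 libraries none of the 31 standard subunits of the 20S core and 19S cap was called. The smallest adjusted p among them was 0.146 in edgeR's quasi-likelihood test. With the 4 untreated libraries fitted alone, 3 of the 48 members were called, 1 higher and 2 lower, beside 1817 of the 15137 genes tested. Psme2, a subunit of the PA28 activator, had the highest log2 fold change of all members, 1.15 (SE 0.41), and was not called (adjusted p 0.0983).

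The 3 immunoproteasome subunits differed widely in level. Psmb9, the interferon-inducible beta1 subunit (ENSMUSG00000096727, chr17:34181987-34187764, minus strand, GRCm38), had 20 and 11 counts in KO libraries and 66 and 62 counts in WT libraries. These counts stood for 1.53 and 0.906 CPM in KO libraries and 5.35 and 6.0 CPM in WT libraries, so both KO libraries lay below both WT libraries. Its log2 fold change was -2.20 (SE 0.53, adjusted p 0.0139 in edgeR's quasi-likelihood test). The call did not hold without KO replicate 1 (-2.63, adjusted p 0.0561), KO replicate 2 (-1.88, adjusted p 0.139) or WT replicate 2 (-2.12, adjusted p 0.0636). Exons of Tap1, the MHC class I peptide transporter, overlap Psmb9 on the opposite strand and the strand setting of the counting is not given in the sources used here, so reads of the pair may not be fully separated.

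Psmb10, the interferon-inducible beta2 subunit (chr8:105935735-105938444, minus strand), was the most abundant of the 3, with 19.2 and 16.1 CPM in KO libraries and 25.6 and 35.4 CPM in WT libraries. The groups did not overlap, but the gene was not called, with a log2 fold change of -0.78 (SE 0.28, adjusted p 0.0964 in edgeR's quasi-likelihood test). Psmb8, the interferon-inducible beta5 subunit (chr17:34197721-34201454, plus strand), had 2 and 4 counts in KO libraries, 0 and 1 in WT libraries, 0 and 2 in siTfap4 libraries and 2 and 4 in siNeg libraries, close to the limit of detection in every group.

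The constitutive partners at the same 3 positions were far more abundant in KO and WT libraries. One read was made per transcript from its 3′ end, so levels of different genes were compared without dividing by length. Psmb6, the constitutive beta1 subunit, had 257 and 255 CPM in KO libraries and 282 and 324 CPM in WT libraries (log2 fold change -0.24, SE 0.26). Psmb7, the constitutive beta2 subunit, had 222 and 241 CPM in KO libraries and 308 and 347 CPM in WT libraries (log2 fold change -0.50, SE 0.29). Psmb5, the constitutive beta5 subunit, had 31.5 and 32.0 CPM in KO libraries and 35.3 and 29.8 CPM in WT libraries (log2 fold change -0.04, SE 0.45). The KO libraries lay below the WT libraries for Psmb6 and Psmb7 and overlapped them for Psmb5, and none of the 3 was called. Psmb5 was the lowest of the constitutive core subunits here, and 63.5% of its last 200 bases also occur in other genes, which makes its counts uncertain.

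As a share of the counts at one position, Psmb9 made up 0.591% (exact 95% binomial interval 0.361 to 0.912) and 0.353% (0.177 to 0.632) of Psmb9 plus Psmb6 in KO libraries, against 1.86% (1.44 to 2.36) and 1.82% (1.40 to 2.32) in WT libraries. The intervals, which cover counting error only, did not meet between the groups. The log2 ratio of Psmb9 to Psmb6 averaged -7.77 in KO libraries and -5.74 in WT libraries, a difference of -2.03. An exact permutation test, two-sided, gave p = 0.333 for it, the smallest value that 2 libraries against 2 can give. Psmb10 made up 7.97% (7.05 to 8.97) and 6.28% (5.45 to 7.18) of Psmb10 plus Psmb7 in KO libraries, against 7.68% (6.89 to 8.54) and 9.27% (8.38 to 10.2) in WT libraries. Here the groups overlapped, and the log2 ratio differed by -0.28 (exact permutation p = 0.667, two-sided). Psmb8 took 0.482% and 1.02% of Psmb8 plus Psmb5 in KO libraries. In WT libraries it was seen in 0 of 435 counts, an exact upper limit of 0.844% (3 counts would be 0.690%), and made up 0.324%, so no difference was detectable at this depth.

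**Figure D1:**
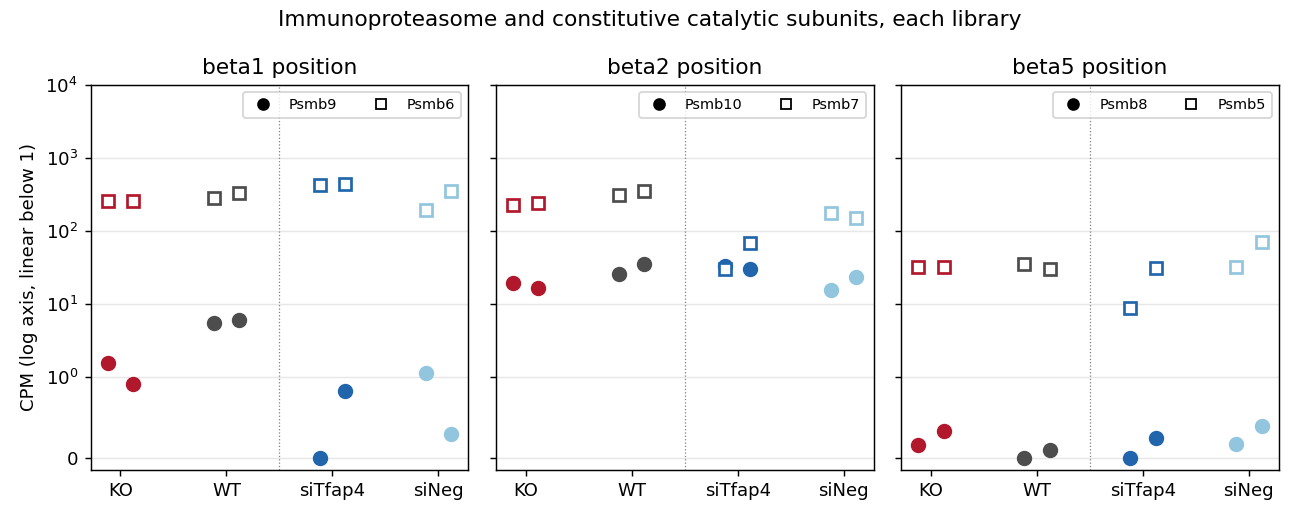
Level of each immunoproteasome subunit (filled circles) and its constitutive counterpart (open squares) in each of the 8 libraries, in CPM on an axis that is logarithmic above 1 and linear below, by group from left to right KO, WT, siTfap4 and siNeg. Psmb9 sits at 1.53 and 0.906 CPM in KO and 5.35 and 6.0 CPM in WT libraries, and Psmb7 sits at 30.2 and 67.5 CPM in siTfap4 libraries, near Psmb10 in the same libraries.

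Both PA28 activator genes, whose products form a ring that opens the core without ubiquitin and are known to be induced by interferon, stood on the other side of WT from Psmb9. Psme2, the PA28 beta subunit (chr14:55587441-55591113, minus strand), had 35.2 and 31.6 CPM in KO libraries and 14.4 and 15.9 CPM in WT libraries. Psme1, the PA28 alpha subunit (chr14:55578123-55581529, plus strand), had 87.2 and 98.8 CPM in KO libraries and 46.3 and 71.3 CPM in WT libraries, a log2 fold change of 0.66 (SE 0.25, adjusted p 0.118 in edgeR's quasi-likelihood test). KO libraries lay above WT libraries for both genes, which were not called. Psme2 was called with the 4 untreated libraries fitted alone (1.15, adjusted p 0.00885). All of its last 200 bases also occur in Psme2b, so reads of the 2 genes may be split, and Psme2b showed 2.67 and 3.21 CPM in KO libraries against 1.22 and 1.84 CPM in WT libraries. Exons of Emc9 overlap Psme1 on the opposite strand. The other regulators, which were not called, had log2 fold changes of -0.30 for Psme3, the nuclear PA28 gamma activator, of -0.16 for Psme4, the PA200 activator, and of -0.26 for Psmf1, the PI31 regulator.

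None of the 31 subunits of the standard particle was called in KO against WT. Their log2 fold changes ran from -0.59 for Psmd3, a scaffold subunit of the 19S lid, to 0.24 for Psmc3, an ATPase of the 19S base. Their median was -0.13, beside -0.01 over all genes tested. Of the 31, 29 lay within 0.5 of 0, and for 18 the KO and WT libraries did not overlap. The shares of all genes tested that do so were not computed, so neither count marks a trait of these genes. Psmd3 had 315 and 389 CPM in KO libraries and 466 and 595 CPM in WT libraries, with no overlap (SE 0.24, adjusted p 0.146). Psmd4, the ubiquitin receptor known as Rpn10, had 319 and 417 CPM in KO libraries and 426 and 567 CPM in WT libraries (log2 fold change -0.43, SE 0.25, adjusted p 0.312). Psma7, a core subunit that stood among the most abundant members, had 542 and 519 CPM in KO libraries and 531 and 532 CPM in WT libraries (log2 fold change 0.00). The summed level of the 7 alpha subunits was 2006 and 1871 CPM in KO libraries and 2043 and 1913 CPM in WT libraries, and that of the 6 ATPases was 1176 and 1171 CPM in KO libraries against 1175 and 1174 CPM in WT libraries. None of the 7 assembly chaperones was called, with log2 fold changes from -0.34 for Psmg1 to 0.20 for Psmd9. Of the last 200 bases of Psmd9 56.5% also occur in other genes, so its counts are uncertain. Of the tissue-specific subunits, Psma8, the testis alpha subunit, had 15.8 and 20.2 CPM in KO libraries and 14.0 and 17.4 CPM in WT libraries. Psmb11, the thymus beta5 subunit, had 0 counts in all untreated libraries.

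The deleted cluster encodes several microRNAs that share a seed, the stretch by which a microRNA pairs with its targets. The 3p strands with the AAGUGC core are shown because the words searched below pair with that core. Words that pair with all of bases 2 to 8 of miR-290a-3p and miR-291b-3p were not searched. The sequences are from RefSeq on GRCm38.p6, chromosome 7, plus strand, with bases 2 to 8 in capitals.
mmu-miR-290a-3p: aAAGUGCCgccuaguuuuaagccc
mmu-miR-291a-3p: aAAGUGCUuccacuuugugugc
mmu-miR-291b-3p: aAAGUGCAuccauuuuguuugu
mmu-miR-294-3p: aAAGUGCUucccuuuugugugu
mmu-miR-295-3p: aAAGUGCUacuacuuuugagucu

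The words AGCACTT, which pairs with bases 2 to 8 of miR-291a-3p, miR-294-3p and miR-295-3p, and GCACTTA, which pairs with the AAGUGC core and has an A opposite base 1, were searched on the transcript strand of annotated 3′ UTRs. Either word occurred in 4 of the 48 tested members (8.33%), beside 2434 of 12704 tested genes with a 3′ UTR (19.2%). The members' 3′ UTRs had a median length of 225 bases, beside 1002 bases for all those genes. All 4 members held AGCACTT. The sites, with the word in capitals, are at chr12:70995796-70995802 (plus strand) in Psma3, chr2:34850801-34850807 (minus strand) in Psmd5, chr2:151716752-151716758 (minus strand) in Psmf1 and chr5:139823650-139823656 (minus strand) in Psmg3, on GRCm38 with GENCODE transcripts.
Psma3: catccagtacAGCACTTgaaacaaaaa
Psmd5: ccacagctccAGCACTTggtttcctga
Psmf1: gtaaataaatAGCACTTtataacctgt
Psmg3: ggtgtgcaggAGCACTTgtgggaagat

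None of these 4 genes was called in KO against WT. Their log2 fold changes were 0.23 for Psma3, an alpha subunit, -0.03 for Psmd5, a chaperone of the 19S base, -0.26 for Psmf1 and -0.08 for Psmg3, a chaperone of the core. Psmb9 and Psme2, at the 2 ends of the members' range, held neither word.

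Promoters of Psmb9 and Psme1 are shown because these genes lay on opposite sides of WT in KO cells and both are known interferon targets. Each window runs from 250 bases before to 50 bases after a RefSeq start on GRCm38.p6, written in the direction of transcription, with the core of the interferon-stimulated response element in capitals, that is GAAA repeated after 2 free bases, searched on both strands. Psmb9 is at chr17:34187281-34187580 (minus strand) and Psme1 at chr14:55578244-55578543 (plus strand).
Psmb9: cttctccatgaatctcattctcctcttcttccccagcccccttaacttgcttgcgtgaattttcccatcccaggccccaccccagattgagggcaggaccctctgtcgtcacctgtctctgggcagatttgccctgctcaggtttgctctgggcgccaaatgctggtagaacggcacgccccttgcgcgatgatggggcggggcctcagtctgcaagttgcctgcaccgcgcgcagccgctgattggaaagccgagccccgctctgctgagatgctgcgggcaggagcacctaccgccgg
Psme1: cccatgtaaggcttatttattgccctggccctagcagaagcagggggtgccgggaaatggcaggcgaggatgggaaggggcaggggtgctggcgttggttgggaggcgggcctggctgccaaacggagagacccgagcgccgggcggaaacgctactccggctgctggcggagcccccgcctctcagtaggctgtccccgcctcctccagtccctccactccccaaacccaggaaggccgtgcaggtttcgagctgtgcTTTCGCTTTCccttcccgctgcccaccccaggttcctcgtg

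This core was present in this window of Psme1 on the opposite strand and absent from that of Psmb9. The core was also absent from the windows of Psme2. The log2 fold change of Psme2 in KO against WT, 1.15, was higher than the 0.66 of Psme1. Presence of the core thus did not follow the direction of change in these 3 genes. It occurred in 5 of the 42 members with a promoter in the table, namely Psmb3, Psmd4, Psmd9, Psme1 and Psmg4, and in 3.44% of all 32851 promoters. The gamma-activated site TTCNNNGAA occurred in Psmb8, Psmd2 and Psmg1, and in 8.30% of all promoters. The antioxidant response element core TGACNNNGC, a site type bound by the Nfe2l1 and Nfe2l2 factors, occurred in 6 members, Psmb5, Psmb6, Psmc6, Psmd12, Psmd9 and Psme4, and in 12.4% of all promoters. A match is a description of the letters only.

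Antigen processing genes and their regulators, taken as one list, moved both ways in KO against WT. Of the 16 listed genes 15 were tested, 3 were higher and 3 lower in KO cells, beside 5.99% higher and 3.96% lower of all genes tested. Their median log2 fold change was -0.07. Of those called higher, Irf1 and Irf9 are regulators. Tap1, the neighbour of Psmb9, had 1.99 and 1.98 CPM in KO libraries and 5.52 and 6.10 CPM in WT libraries, a log2 fold change of -1.54 (SE 0.40, adjusted p 0.0209 in edgeR's quasi-likelihood test). B2m, the invariant chain of MHC class I, had 9.47 and 13.9 CPM in KO libraries and 24.1 and 29.6 CPM in WT libraries (-1.20, SE 0.30, adjusted p 0.0169). Both were below WT in both KO libraries, as Psmb9 was.

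Irf1, a transcription factor known to induce the immunoproteasome genes, had 92 and 97.8 CPM in KO libraries and 21.5 and 30.9 CPM in WT libraries. Its log2 fold change of 1.86 (SE 0.26, adjusted p 0.000297 in edgeR's quasi-likelihood test) was opposite in sign to that of Psmb9. Irf9, a subunit of the interferon-activated complex ISGF3, was higher by 1.09 on the log2 scale (SE 0.27, adjusted p 0.0150). Erap1, a peptidase that trims peptides for MHC class I, was also higher, and Irf8 lower. Erap1 had 32 and 26 counts in KO libraries and only 3 and 3 counts in WT libraries. Of its last 200 bases 42.0% also occur in other genes. Irf1 was called in all 12 alternative fits, whereas leaving out each library in turn ended the call of Tap1 (adjusted p 0.0623 to 0.148) and of Irf9 (0.0707 to 0.135) every time, and that of B2m ended without KO replicate 1 (0.247) or WT replicate 2 (0.117). Irf8 lost the call without KO replicate 1 (0.0849), KO replicate 2 (0.0643) or WT replicate 2 (0.0961), and Erap1 without WT replicate 1 (0.0678).

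Markers of cell types also differed in KO against WT, as Psmb9, Tap1 and B2m did. Of 6 primitive endoderm markers all were tested and 3 were lower in KO cells (Gata6, Sox17 and Dab2), with a summed level of 10.1 and 9.72 CPM in KO libraries against 61.8 and 51.1 CPM in WT libraries. Of 7 fibroblast markers 3 were tested and 2 were lower (Col1a1 and Thy1), with sums of 11.8 and 22.4 CPM in KO libraries against 30.8 and 54.5 CPM in WT libraries and with Col3a1 at 0 in every library. Sox17 and Col1a1 passed the filter on low counts through their WT libraries alone, so a lower KO level was built into their being tested. Of 6 meiotic germ cell markers 2 were lower (Dazl and Sycp1), with overlapping sums of 169.1 and 183.5 CPM in KO libraries against 158.1 and 200.4 CPM in WT libraries. The sums include Stra8, which was not called, at 118 and 136 CPM in KO libraries and 57.8 and 75.9 CPM in WT libraries. Among the stem cell markers Utf1 was lower, at 280.2 and 337 CPM in KO libraries and 592 and 574 CPM in WT libraries (-0.92, SE 0.22, adjusted p 0.0132 in edgeR's quasi-likelihood test). Of 7 blood and macrophage markers 3 were tested and none was called, with sums of 14.5 and 20.2 CPM in KO libraries against 14.6 and 16.3 CPM in WT libraries and with the pan-leukocyte gene Ptprc at 0 and 0 CPM in KO libraries and 0 and 0.0968 CPM in WT libraries. The part of these markers in the Psmb9 difference was not tested. In whole cultures, fewer cells of a type and less RNA per cell cannot be told apart.

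In siTfap4 cells proteasome genes were called in both directions. Of the 48 tested members 17 were called (35.4%), 5 higher and 12 lower in siTfap4 cells, against 15.4% of all genes tested, 4.36% higher and 11.1% lower. The genes that rose were Psmc1, Psmc3 and Psmc5, all ATPases of the 19S base, and Psmd13 and Psmd4 of the 19S cap, by 1.79-fold to 2.43-fold. Those that fell were Psma1, Psma3 and Psma5 of the alpha rings, Psmb2 and Psmb7 of the beta rings, Psmc2 and Psmd14 of the cap, the chaperones Psmg1, Psmg2 and Psmd5, and the activators Psme2 and Psme4, by 1.77-fold to 7.27-fold. The median log2 fold change of the members was -0.18, beside 0.01 over all genes tested. Where called genes are said below to lie below or above all other libraries, those include the KO and WT libraries of the other set. The genes were selected by their siTfap4 against siNeg difference, so such a separation is a description and not added support.

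**Figure D2:**
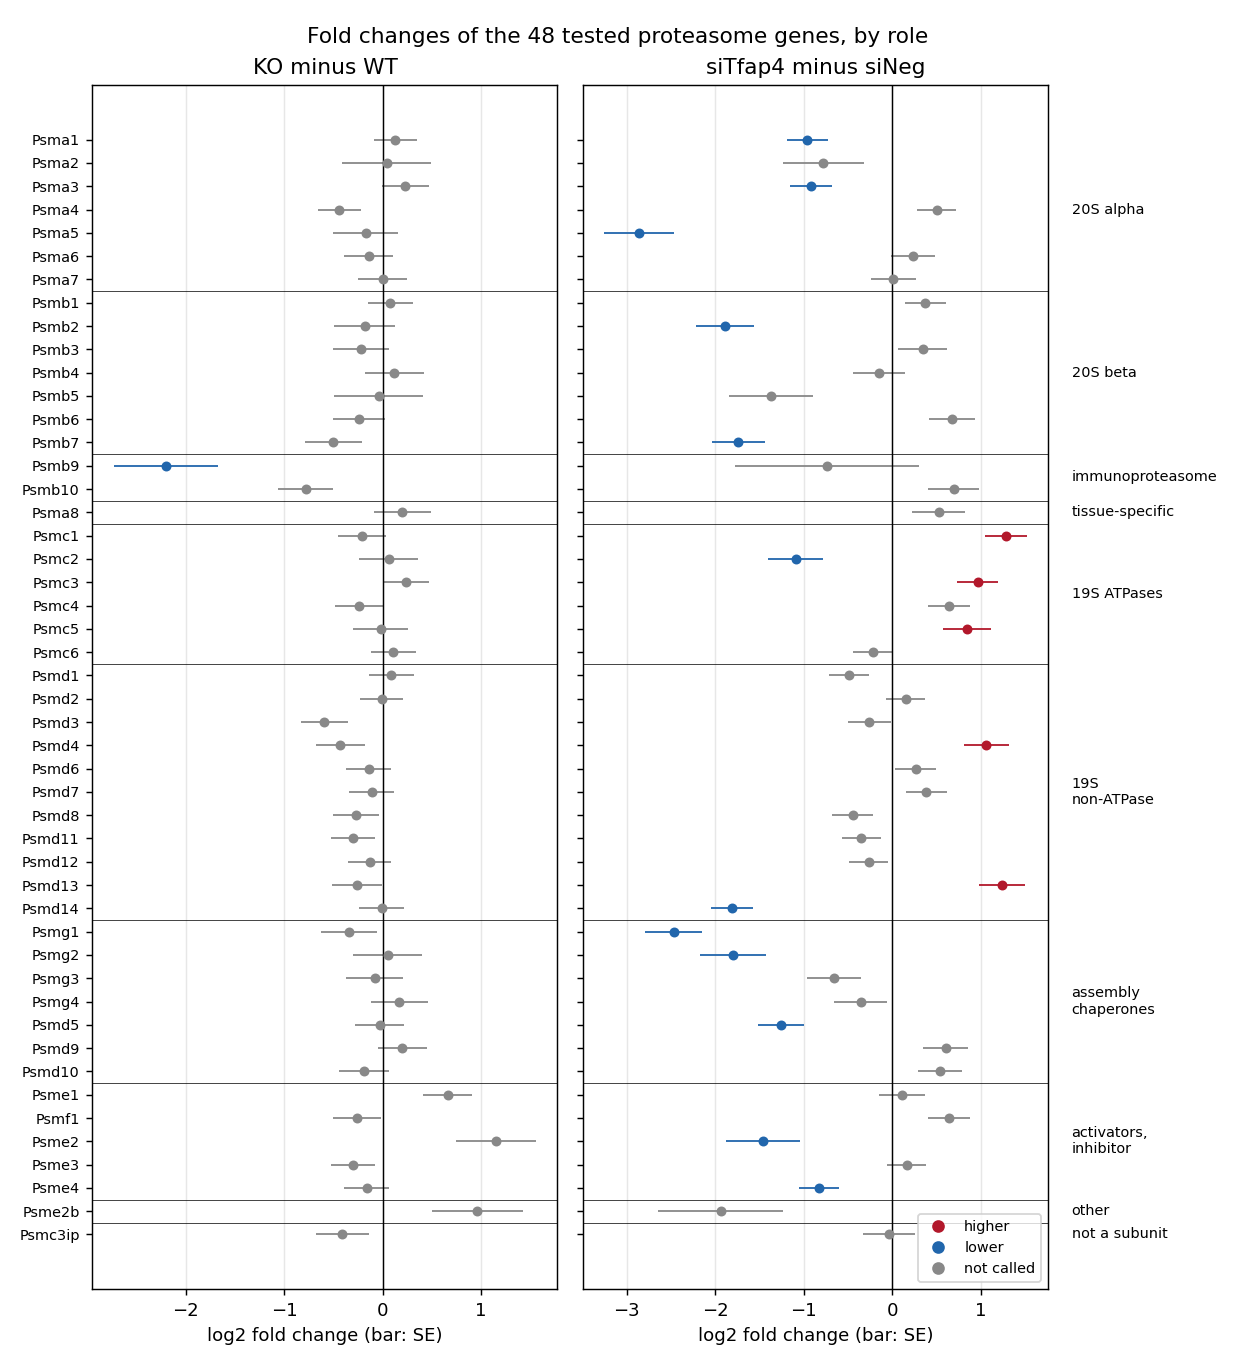
Log2 fold change (x axis) of each of the 48 tested genes (rows, grouped by role), KO minus WT on the left and siTfap4 minus siNeg on the right, with points for the estimate and bars for 1 SE. Red marks genes called higher, blue those called lower and grey those not called. On the left Psmb9 at -2.20 is the single coloured point, and on the right 5 points are red and 12 are blue.

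Among the alpha subunits, Psma5, which forms part of the gated ring (chr3:108256926-108279974, plus strand), fell the most of all members. It had 5.47 and 16.0 CPM in siTfap4 libraries and 99.6 and 57.8 CPM in siNeg libraries, a log2 fold change of -2.86 (SE 0.39, adjusted p 0.000236 in edgeR's quasi-likelihood test). Both siTfap4 libraries lay below all other libraries. Of its last 200 bases 89.0% also occur in Gm12989 and Gm8394, which together had at most 10 counts in any library, and 1700010K24Rik overlaps it on the opposite strand. Psma1 had 99.5 and 84.9 CPM in siTfap4 libraries and 182 and 177 CPM in siNeg libraries (-0.96, SE 0.23, adjusted p 0.0103). Psma3 had 90.6 and 124 CPM in siTfap4 libraries and 174 and 230.3 CPM in siNeg libraries (-0.92, SE 0.24, adjusted p 0.0178). Both genes were lower in both siTfap4 libraries than in any other library. The other 4 alpha subunits were not called. Psma2 showed the widest spread within groups, with 151 and 513 CPM in siTfap4 libraries and 387 and 754 CPM in siNeg libraries, and Psma7 stood at 511 and 647 CPM in siTfap4 libraries and 450.0 and 704 CPM in siNeg libraries.

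Among the beta subunits, Psmb2, a structural subunit of the beta ring, had 9.67 and 24.5 CPM in siTfap4 libraries and 59.5 and 68.2 CPM in siNeg libraries (-1.89, SE 0.33, adjusted p 0.00135 in edgeR's quasi-likelihood test). Psmb7, the constitutive beta2 subunit, had 30.2 and 67.5 CPM in siTfap4 libraries and 178 and 149.7 CPM in siNeg libraries (-1.74, SE 0.30, adjusted p 0.00128). Both siTfap4 libraries lay below all others for both genes, and Nek6 overlaps Psmb7 on the opposite strand. The constitutive subunits of the other 2 cutting positions were not called. Psmb6 had 428 and 436 CPM in siTfap4 libraries and 191 and 354 CPM in siNeg libraries (0.67, SE 0.26, adjusted p 0.0970). Psmb5 had 8.78 and 30.5 CPM in siTfap4 libraries and 31.9 and 70.3 CPM in siNeg libraries (-1.37, SE 0.47, adjusted p 0.0680). Psmb6 was thus above and Psmb5 below the siNeg libraries without overlap. Psmb5 was called by DESeq2 (adjusted p 0.0195) and limma-voom (adjusted p 0.0348).

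None of the immunoproteasome subunits was called in siTfap4 against siNeg, by edgeR's quasi-likelihood test. Psmb9 had 0 and 7 counts in siTfap4 libraries and 13 and 3 counts in siNeg libraries (-0.74, SE 1.04, adjusted p 0.664), and its groups overlapped. Psmb10 had 32.6 and 29.7 CPM in siTfap4 libraries and 15.5 and 23.3 CPM in siNeg libraries, with no overlap (0.69, SE 0.29, adjusted p 0.117). With Psmb7 lower, Psmb10 made up 51.9% (exact 95% binomial interval 47.4 to 56.4) and 30.5% (27.4 to 33.8) of the beta2 counts in siTfap4 libraries, against 8.02% (6.94 to 9.22) and 13.5% (11.9 to 15.1) in siNeg libraries. The log2 ratio of Psmb10 to Psmb7 averaged -0.54 in siTfap4 libraries and -3.10 in siNeg libraries, a difference of 2.56, for which the exact permutation test, two-sided, gave its smallest possible p of 0.333. Psmb9 was seen in 0 of 3367 beta1 counts in the first siTfap4 library, an exact upper limit of 0.109% (3 counts would be 0.0891%), and made up 0.189% in the second, against 0.580% and 0.0819% in siNeg libraries. Psmb8 took 0 of 69 beta5 counts, an exact upper limit of 5.21% (3 counts would be 4.35%), and 0.766% in siTfap4 libraries, against 0.533% and 0.547% in siNeg libraries.

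The 6 ATPases of the 19S base, which form the ring that unfolds substrates, split by direction. Psmc1 (chr12:100110154-100123405, plus strand) rose the most of all members. It had 752 and 501 CPM in siTfap4 libraries and 260.2 and 256 CPM in siNeg libraries, a log2 fold change of 1.28 (SE 0.24, adjusted p 0.00215 in edgeR's quasi-likelihood test). Psmc3 had 647 and 507 CPM in siTfap4 libraries and 253 and 339 CPM in siNeg libraries (0.96, SE 0.23, adjusted p 0.0118). Exons of Slc39a13 overlap Psmc3 on the opposite strand. Psmc5 had 263 and 190.2 CPM in siTfap4 libraries and 90.8 and 163 CPM in siNeg libraries (0.84, SE 0.27, adjusted p 0.0480), a call not made with the 4 siPOOL libraries fitted alone (0.81, adjusted p 0.0913). The siTfap4 libraries lay above all others for these 3 genes. Psmc2 had 64.8 and 154 CPM in siTfap4 libraries and 213 and 255 CPM in siNeg libraries (-1.09, SE 0.31, adjusted p 0.0264), below all others. Psmc4 (0.64) and Psmc6 (-0.22) were not called. The summed level of the 6 ATPases was 2152 and 1772 CPM in siTfap4 libraries and 1145 and 1402 CPM in siNeg libraries.

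Of the 11 other subunits of the 19S cap, 3 were called, 2 higher and 1 lower, beside 15.4% of all genes tested. Psmd13, a lid subunit, had 748 and 560.4 CPM in siTfap4 libraries and 214 and 341 CPM in siNeg libraries (1.24, SE 0.26, adjusted p 0.00453 in edgeR's quasi-likelihood test), and Sirt3 overlaps it on the opposite strand. Psmd4, the Rpn10 ubiquitin receptor, had 711 and 543 CPM in siTfap4 libraries and 282 and 319.7 CPM in siNeg libraries (1.06, SE 0.25, adjusted p 0.00954). Its siTfap4 libraries were above the siNeg libraries but not above the second WT library, at 567 CPM. Psmd14, the lid's deubiquitinase (chr2:61711694-61800376, plus strand), had 46.1 and 62.0 CPM in siTfap4 libraries and 189 and 189 CPM in siNeg libraries (-1.81, SE 0.24, adjusted p 0.000138). Its siNeg libraries stood at nearly the same level, and both siTfap4 libraries were below every other library. Log2 fold changes of the other 8 ran from -0.49 for Psmd1, a base scaffold, to 0.38 for Psmd7, the partner of Psmd14 in the lid. Of the last 200 bases of Psmd1 65.5% also occur in Gm21972, which overlaps it on the same strand, so counts of Psmd1 are uncertain. Gm21972 had 0 counts in every library.

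Of the 7 assembly chaperones 3 were called lower and none was called higher, beside 11.1% lower and 4.36% higher of all genes tested. Psmg1, which with Psmg2 forms the dimer that starts the alpha ring (chr16:95979933-95990960, minus strand), had 4.96 and 12 CPM in siTfap4 libraries and 50 and 44.9 CPM in siNeg libraries (-2.47, SE 0.32, adjusted p 0.000138 in edgeR's quasi-likelihood test). Psmg2 had 12.2 and 35.8 CPM in siTfap4 libraries and 76.3 and 92.1 CPM in siNeg libraries (-1.80, SE 0.37, adjusted p 0.00562). Psmd5, a chaperone of the 19S base, had 24.6 and 39.0 CPM in siTfap4 libraries and 82.9 and 70.0 CPM in siNeg libraries (-1.26, SE 0.26, adjusted p 0.00493). All 3 lay below every other library in both siTfap4 libraries. Psmg3 and Psmg4, the other dimer of core chaperones, had log2 fold changes of -0.66 and -0.36, and Psmd9 and Psmd10, chaperones of the base, had 0.60 and 0.54, none of them called. The chaperones together summed to 189.2 and 293.3 CPM in siTfap4 libraries and 376.8 and 423.7 CPM in siNeg libraries.

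Among the activators, Psme2 had 6.49 and 24.7 CPM in siTfap4 libraries and 35.8 and 50.7 CPM in siNeg libraries (-1.46, SE 0.42, adjusted p 0.0303 in edgeR's quasi-likelihood test). Its partner Psme1 had 75.6 and 73.9 CPM in siTfap4 libraries and 61.0 and 77.2 CPM in siNeg libraries, which overlapped (0.11, SE 0.26, adjusted p 0.804). Psme4, the PA200 activator, had 111 and 134.5 CPM in siTfap4 libraries and 250.1 and 186 CPM in siNeg libraries (-0.83, SE 0.23, adjusted p 0.0260). With the 4 siPOOL libraries fitted alone neither Psme2 nor Psme4 was called. Both siTfap4 libraries were below the siNeg libraries for Psme2 and Psme4, and the second siTfap4 library was above both WT libraries for Psme2. Psme3 (0.16), Psmf1 (0.64) and Psme2b (-1.94, adjusted p 0.0740) were not called. The remaining members were Psma8 (0.52) and Psmc3ip (-0.04), also not called, and Psmb11, which had no count except 2 in the second siNeg library.

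**Figure D3:**
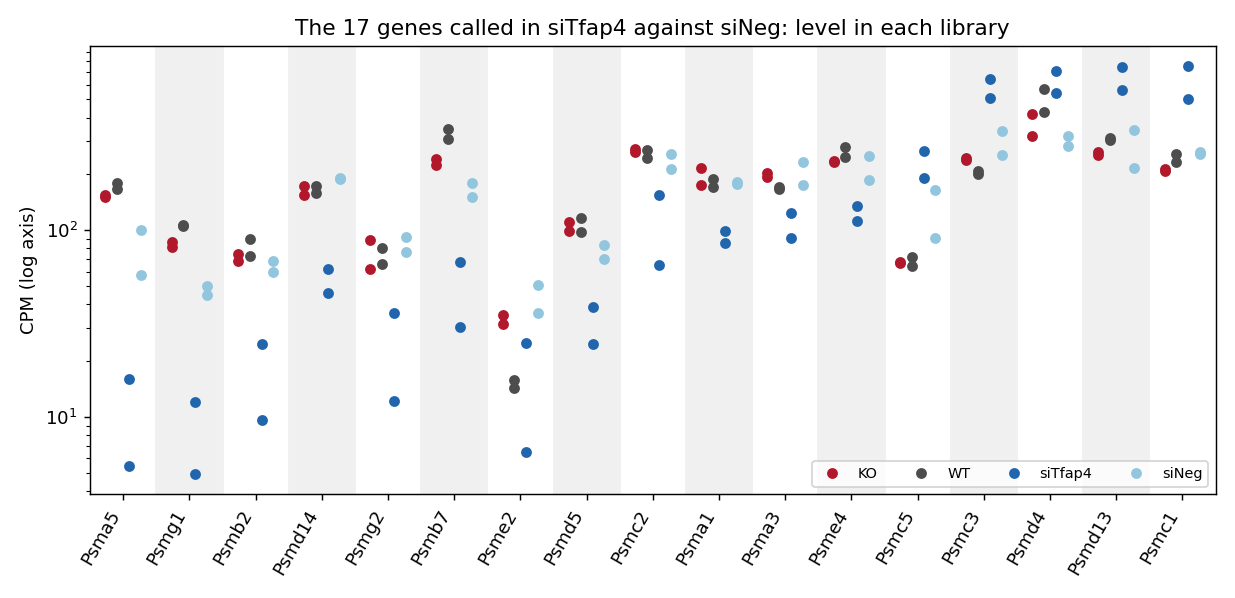
Level in CPM (log axis) in each of the 8 libraries for the 17 genes called in siTfap4 against siNeg, ordered from the most negative to the most positive log2 fold change, with KO, WT, siTfap4 and siNeg libraries side by side for each gene. For 11 of the 12 genes that fell and 4 of the 5 that rose both siTfap4 libraries lie outside all 6 other libraries, with Psme2 and Psmd4 as the exceptions. The genes were selected by their siTfap4 against siNeg difference, so part of this separation follows from the selection. The share over all genes was not computed, and the KO and WT libraries belong to the other set.

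The size of these changes differed between the siTfap4 libraries. Replicate 1 was the lower one for 11 of the 12 genes that fell and the higher one for all 5 that rose. Without siTfap4 replicate 1, 8 members were called, 1 higher and 7 lower, beside 3.3% of all genes tested (12 genes higher and 487 lower). Without siNeg replicate 1, 9 members were called, 1 higher and 8 lower, beside 4.84% of all genes tested (34 genes higher and 698 lower). Psma5, Psmb2, Psmb7, Psmc1, Psmd14, Psmg1 and Psmg2 were called in all 12 alternative fits. Psma3, Psmc2, Psmc3, Psmc5, Psmd4, Psmd5, Psmd13, Psme2 and Psme4 lost their calls without siTfap4 replicate 1, with adjusted p from 0.0617 to 0.347. Psma1 (0.0532) and the same genes other than Psma3 lost theirs without siNeg replicate 1, with adjusted p from 0.0529 to 0.330, and Psma3, Psmc2 and Psme2 without siNeg replicate 2 (0.0878 to 0.140).

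Levels varied with base composition between the siPOOL groups. Whether the treatment or the library preparation gave this difference was not tested. Relative to the 4 siPOOL libraries' mean, the low class of 3 equal classes of genes by their share of G and C in the last 100 bases had a median log2 deviation of -0.255 and -0.124 in siTfap4 libraries and of 0.330 and 0.081 in siNeg libraries. The high class had 0.281 and 0.096 in siTfap4 libraries and -0.242 and -0.096 in siNeg libraries. Both groups enter that mean, so opposite signs are partly built in, and replicate 1 deviated more in each group. In the untreated libraries such deviations stayed between -0.026 and 0.048. By call, the 5 members that rose had 43% to 52% G and C (median 46%), the 12 that fell had 23% to 53% (median 32%) and the 31 not called had 23% to 55% (median 38%). Psmd5, at 53%, was the exception among those that fell. Across the 48 members, which share the same libraries, the log2 fold change had a Pearson r of 0.41 and a Spearman rho of 0.43 with G and C, beside 0.35 and 0.41 over 15119 tested genes. In KO against WT the values over the members were 0.13 and -0.01.

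**Figure D4:**
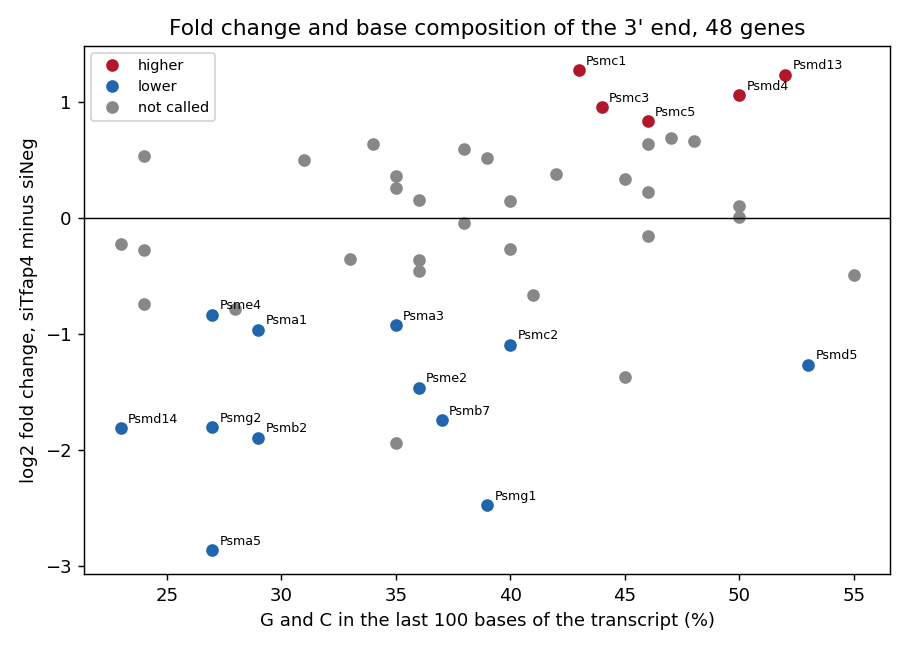
Log2 fold change in siTfap4 minus siNeg (y axis) against the percentage of G and C in the last 100 bases of the transcript (x axis) for the 48 tested genes, with genes called higher in red, called lower in blue and not called in grey. The 5 red genes sit between 43% and 52%, and the blue genes lie at 40% or less except Psmd5 at 53%.

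With an offset that removes the trend with G and C in each library, 18 members were called, 6 higher and 12 lower, against 11.8% of all genes tested, and 13 of the 17 calls were shared. Psma5 (-2.45), Psmg1 (-2.58), Psmb7 (-1.76), Psmd14 (-1.32) and Psmc1 (1.01) were among the shared ones. Psma1 (-0.61, adjusted p 0.0878), Psmc5 (0.52, adjusted p 0.179), Psmd4 (0.65, adjusted p 0.0716) and Psme4 (-0.40, adjusted p 0.234) lost their calls in edgeR's quasi-likelihood test with the offset. Psma4 (0.75), Psmb5 (-1.62), Psmd1 (-0.91), Psmd10 (1.00) and Psmf1 (0.77) gained one.

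The promoters of Psma5, which fell the most, and of Psmd4 are shown because Tfap4 is known to bind the E-box CAGCTG. Among called members with a promoter to search, only Psmd4 held it. The called genes Psmb2, Psmb7, Psmc3 and Psmg2 had no promoter to search, so the word is unknown for them. The windows are as above, from RefSeq on GRCm38.p6, with matches to CAGCTG and to the interferon-stimulated core on either strand in capitals. Psma5 is at chr3:108256676-108256975 (plus strand) and Psmd4 at chr3:95042565-95042864 (minus strand).
Psma5: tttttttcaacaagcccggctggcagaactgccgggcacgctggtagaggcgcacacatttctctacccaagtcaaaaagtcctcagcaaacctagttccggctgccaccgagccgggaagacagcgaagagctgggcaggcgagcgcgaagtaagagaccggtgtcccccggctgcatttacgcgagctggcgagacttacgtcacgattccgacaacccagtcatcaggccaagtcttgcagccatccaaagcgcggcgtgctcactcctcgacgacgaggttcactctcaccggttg
Psmd4: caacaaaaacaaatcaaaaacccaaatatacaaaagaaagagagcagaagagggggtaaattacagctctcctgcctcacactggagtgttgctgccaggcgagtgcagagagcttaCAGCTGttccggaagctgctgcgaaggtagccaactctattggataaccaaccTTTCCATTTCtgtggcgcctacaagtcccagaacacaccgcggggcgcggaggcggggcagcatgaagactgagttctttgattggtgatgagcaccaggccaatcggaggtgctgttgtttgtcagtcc

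CAGCTG occurred in the promoters of Psma4, Psmd10 and Psmd4, 3 of the 42 members with a promoter, and in 16.3% of all 32851 promoters. In siTfap4 against siNeg, Psma4 had a log2 fold change of 0.50 (adjusted p 0.132) and Psmd10 of 0.54 (adjusted p 0.155). The E-box CACGTG occurred in Psma4, Psmb10, Psmd9 and Psme3, none of them called, and in 7.15% of all promoters.

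Among partners of the proteasome outside the named family, 1 of the 18 genes tested was called in each comparison. The shares of all genes tested were 9.95% in KO against WT and 15.4% in siTfap4 against siNeg. Of 19 proteasome partners 18 were tested, and in siTfap4 against siNeg only Sem1, the smallest subunit of the 19S lid, was called. It had 9.41 and 19 CPM in siTfap4 libraries and 183 and 154 CPM in siNeg libraries, a log2 fold change of -3.56 (SE 0.31, adjusted p 4.15e-06 in edgeR's quasi-likelihood test). This 11.8-fold difference was larger than that of any member. In KO against WT only Ubqln4, a shuttle of ubiquitinated proteins, was called, at 54.7 and 65.9 CPM in KO libraries and 126 and 115 CPM in WT libraries (-1.0, SE 0.24, adjusted p 0.0152), a call that ended whichever library was left out (adjusted p 0.0516 to 0.203).

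Of the 6 tested genes for ubiquitin and its activation, 2 were lower in siTfap4 cells, beside 11.1% lower of all genes tested. None was called in KO against WT, beside 9.95% of all genes tested. Ubb, a polyubiquitin gene, had 1.91 and 1.06 CPM in siTfap4 libraries and 45.3 and 59.4 CPM in siNeg libraries (-5.14, SE 0.37, adjusted p 1.48e-06 in edgeR's quasi-likelihood test). Rps27a, a ubiquitin fused to a ribosomal protein, was lower by -2.88 on the log2 scale (SE 0.39, adjusted p 0.000395), at 48.5 and 139 CPM in siTfap4 libraries and 567 and 815 CPM in siNeg libraries. The ends of both genes are shared with other genes, over 100% and 83.5% of their last 200 bases, so their counts are uncertain.

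Of the 4 regulators of proteasome genes, Nfe2l1, the factor known to restore proteasome genes after inhibition, was lower in siTfap4 cells. It had 63.5 and 58.9 CPM in siTfap4 libraries and 109.5 and 94.3 CPM in siNeg libraries (-0.74, SE 0.23, adjusted p 0.0375 in edgeR's quasi-likelihood test). With the 4 siPOOL libraries fitted alone Nfe2l1 was not called. The call was lost without siTfap4 replicate 1 (0.121), siTfap4 replicate 2 (0.0748) or siNeg replicate 1 (0.166). Nfe2l2, the factor of the oxidative stress response, had a higher level in KO cells, with 201 and 183 CPM in KO libraries and 103 and 113 CPM in WT libraries (0.83, SE 0.25, adjusted p 0.0493), a call that also ended whichever library was left out (0.148 to 0.269). In siTfap4 against siNeg only Tapbp, which loads peptides on MHC class I, was called among the 15 antigen processing genes tested (1.03, SE 0.29, adjusted p 0.0258), and not with the G and C offset (0.56, adjusted p 0.177), without siTfap4 replicate 1 (0.66, adjusted p 0.297) or without siNeg replicate 1 (0.86, adjusted p 0.198).

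Markers beside the siTfap4 changes gave the following values. Of the 8 pluripotency markers, Pou5f1 rose (log2 fold change 1.02, SE 0.25) and Nanog (-1.49, SE 0.30) and Dppa5a (-6.05, SE 0.36) fell in siTfap4 cells. Dppa5a had 3.82 and 9.31 CPM in siTfap4 libraries and 387 and 492 CPM in siNeg libraries. Of its last 200 bases 63.5% also occur in another gene, so its counts are uncertain. The 8 markers summed to 2363 and 2502 CPM in siTfap4 libraries and 3440 and 3242 CPM in siNeg libraries. No fibroblast, blood, primitive endoderm or germ cell marker was called. The summed levels were 9.92 and 7.66 CPM in siTfap4 libraries against 13.6 and 11.4 CPM in siNeg libraries for fibroblasts, and 8.40 and 5.42 CPM in siTfap4 libraries against 8.38 and 6.86 CPM in siNeg libraries for primitive endoderm. For blood cells they were 20.1 and 16.7 CPM in siTfap4 libraries against 19.3 and 20.4 CPM in siNeg libraries. The part of the pluripotency markers in the changes of the proteasome genes was not tested.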

How the data were processed

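The deposited table held whole-number counts of QuantSeq 3′ reads per gene, raw counts as the authors deposited them, for 8 libraries in 4 groups of 2. Per the submitters' processing notes, Trim Galore and GRCm38 were used. Which aligner, counting tool, strand option and gene annotation they used is not given in the sources used here. Symbols came from GENCODE. Members, roles, gene lists and markers were chosen with earlier results of these data known. Every member was accounted for. Values per library are given for the immunoproteasome subunits and their partners, Psme1, Psme2, each called member, the extremes of each comparison and up to 4 called genes per list, besides a few members named after their values were seen (Psma2, Psma7, Psmd3, Psma8 and Psme2b).

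Genes were filtered with filterByExpr and scaled by TMM, and a single model of 4 group means over 8 libraries was fitted in edgeR 4.0.16 (robust quasi-likelihood) in R 4.3.3. The estimate of spread was thus shared by all groups, although their duplicates differed unequally. Measured against counting error, the duplicates' chi-square per degree of freedom was 11.7 for KO, 19.5 for WT, 29.8 for siTfap4 and 38.4 for siNeg. Standard errors are the log2 fold change divided by the square root of the F statistic. Alternatives used DESeq2 1.42.0, limma 3.58.1 (voom), other filters, a threshold of 0.1, the 4 libraries of a comparison alone, a replicate block, an offset for G and C of the 3′ end (lowess span 0.3) and each library left out. Words of 31 bases measured shared 3′ ends, and over 50% was treated as uncertain. This held for 9 members, Psma5, Psmb3, Psmb5, Psmb11, Psmd1, Psmd2, Psmd9, Psme2 and Psme2b. On simulated counts with 2 libraries a group, the KO against WT test (14610 genes) called 97% of 4-fold and 33% of 2-fold changes, and the siTfap4 against siNeg test (14607 genes) called 95% of 4-fold and 25% of 2-fold changes. The changes were placed only in genes above a minimum mean level, so these rates do not cover low-count members such as Psmb9 and Psmb8. The simulated counts carried no trend with G and C. Protein sequences were not used here. A gene of the pathway lists is not reported here.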

Additional observations from a re-analysis of the deposited data

How the results depend on the processing

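In KO against WT, 3 members were called at an adjusted p of 0.1, with the 4 libraries alone and with the replicate block plus the G and C offset, and 0 to 1 when 1 library was left out, against 1 in the report. All genes called ranged from 610 to 857 when 1 library was left out, against 1506. Of the 15137 genes tested, 2207 were called at an adjusted p of 0.1. With the 4 libraries alone 1817 were called, and with the replicate block plus the G and C offset 1647. The members' median log2 fold change of -0.119 became -0.077 without a filter and -0.142 with DESeq2, and ranged from -0.156 to -0.101 when 1 library was left out. In siTfap4 against siNeg, 3528 genes were called at an adjusted p of 0.1, against 2334. When 1 library was left out, 8 to 21 members and 499 to 2987 genes were called, and the members' median ranged from -0.339 to 0.044. Among the members for which every alternative was tabulated, the estimates that changed sign were not called in either fit. They were Psmb5 in KO against WT without WT replicate 1 (0.10, in a range of -0.15 to 0.10 over libraries left out), and in siTfap4 against siNeg Psmb9 without siTfap4 replicate 1 (0.19) or siNeg replicate 1 (0.54, range -6.03 to 0.54) and Psme1 with the offset (-0.28), the replicate block plus offset (-0.28) or without siNeg replicate 1 (-0.05, range -0.05 to 0.29). With the offset, the uncalled Psma6 (-0.07), Psma7 (-0.37), Psmc6 (0.26) and Psmd12 (0.21) also changed sign in siTfap4 against siNeg. The causes were not tested.

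The labels do not say that replicate numbers pair the libraries. The replicate 1 minus 2 differences of the groups had a correlation over genes of -0.061 for KO and WT and of 0.126 for siTfap4 and siNeg. With the replicate block 1 member was called in KO against WT and 18 in siTfap4 against siNeg, 16 of them shared with the 17. Of the 15137 genes tested, the block gave 1337 calls in KO against WT and 2064 in siTfap4 against siNeg. The block ended the call of Psmc5 (0.88, adjusted p 0.07) and gave one to 2 others, Psmb5 among them (-1.50, adjusted p 0.00666), and the block plus offset gave one in KO against WT to Psme1 (0.73, adjusted p 0.0448) and Psme2 (1.11, adjusted p 0.0405), by edgeR's quasi-likelihood test. Depth limited Psmb8, Psmb9 and Psmb11, with counts near 0 in several libraries. The ratios of Psmb8 to Psmb5, and of Psmb9 to Psmb6 in siTfap4 against siNeg, got no test because a library had 0 counts. The comparison of protein sequences was not run.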
